A study of Homo sapiens with 12 samples.

Results

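IRF4, PRDM1 and XBP1 are the transcription factors that turn a B cell into an antibody-secreting plasma cell, and the H3K27ac peaks at these 3 genes were read from the peak lists of 6 clones of the lymphoma line SUDHL4. H3K27ac, acetylation of lysine 27 of histone H3, marks active promoters and enhancers. A peak belonged to a gene if it lay inside a fixed window on hg19, chr6:350000-450000 for IRF4, chr6:106480000-106620000 for PRDM1 and chr22:29160000-29230000 for XBP1. Joining overlapping peaks across the 6 lists gave 48876 merged regions in the genome. Of these, 3 lay in the windows, all of them in the XBP1 window, built from 13 peaks. No peak crossed an edge of a window.

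SUDHL4 derives from a diffuse large B-cell lymphoma with germinal-centre features and was grown in culture without further treatment. The CREBBP-KO group was 2 clones without CREBBP, made with CRISPR/Cas9 guides against exon 15 and exon 20. The EP300-KO group was 2 clones without EP300, made with guides against exon 17 and exon 24. The WT group was 2 clones edited at the neutral locus PPP1R12C. Their genotype label is CREBBP WT and does not name EP300. CREBBP-KO clone 1 has a different exon in its name, and exon 15 is taken from its protocol. Each line is 1 clone from a single cell, so differences between genotypes rest on 2 clones each. All p-values take the clone as the unit. The series holds 12 samples, 6 immunoprecipitated libraries with a peak list each and their 6 inputs.

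IRF4, induced by antigen-receptor and CD40 signals, acts, when abundant, upstream of the plasma cell programme. PRDM1, also called Blimp-1, is a repressor that silences B-cell genes such as PAX5, CIITA and BCL6. XBP1 drives the secretory machinery, and its mRNA is spliced by the stress sensor ERN1 (IRE1) in the unfolded protein response. In germinal-centre B cells BCL6, PAX5 and BACH2 hold PRDM1 down, and germinal-centre lymphomas are known for keeping the plasma cell factors low. CREBBP and EP300 are paralogous acetyltransferases that deposit H3K27ac, and the comparisons ask how peaks at these genes differ when either enzyme is missing.

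The promoters of the 3 genes are shown because H3K27ac at an active gene is usually richest there, and in the lists as analysed here none of them held a peak within 2 kb. All 3 genes matched an entry in the RefSeq promoter table (GRCh38.p14, 250 bases before to 50 after the start site, read 5′ to 3′ along the gene), and where a gene had 2 entries the first was used. Capitals mark matches, on either strand, to the NF-kB pattern (GGG and CC with any 5 bases between), and in XBP1 also to the ER stress element (CCAAT and CCACG with any 9 bases between).
IRF4, chr6:391502-391801, plus strand: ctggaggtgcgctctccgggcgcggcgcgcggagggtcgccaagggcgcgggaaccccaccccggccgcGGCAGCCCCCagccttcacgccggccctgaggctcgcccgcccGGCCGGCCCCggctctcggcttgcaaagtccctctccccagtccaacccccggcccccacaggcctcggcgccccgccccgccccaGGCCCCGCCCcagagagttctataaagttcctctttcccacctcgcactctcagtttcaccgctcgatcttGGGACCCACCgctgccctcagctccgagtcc
PRDM1, chr6:106086086-106086385, plus strand: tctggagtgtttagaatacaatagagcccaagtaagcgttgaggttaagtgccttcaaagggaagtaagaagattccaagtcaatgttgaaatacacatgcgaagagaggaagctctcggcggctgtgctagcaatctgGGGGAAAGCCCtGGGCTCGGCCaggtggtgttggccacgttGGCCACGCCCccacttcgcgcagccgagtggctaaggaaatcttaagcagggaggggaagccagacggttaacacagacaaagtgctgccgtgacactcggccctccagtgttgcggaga
XBP1, chr22:28800520-28800819, minus strand: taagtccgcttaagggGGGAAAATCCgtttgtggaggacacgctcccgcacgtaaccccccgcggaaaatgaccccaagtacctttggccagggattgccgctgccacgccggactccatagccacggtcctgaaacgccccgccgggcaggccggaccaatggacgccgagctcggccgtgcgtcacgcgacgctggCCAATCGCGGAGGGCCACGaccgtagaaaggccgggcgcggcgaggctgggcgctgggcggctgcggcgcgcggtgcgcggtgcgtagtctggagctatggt

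The XBP1 promoter held the ER stress element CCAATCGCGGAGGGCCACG at positions -52 to -34 from the start site, a pattern carried by 0.0769% of 35116 RefSeq promoters of this length. The NF-kB pattern had 4 matches in IRF4, 5 in PRDM1, some of them overlapping, and 1 in XBP1, but 58.7% of all promoters hold it. The IRF pattern, a pair of GAAA with any 2 bases between (3.57% of promoters), the PRDM1 pattern GTGAAAG (3.95%) and the XBP1 pattern TGACGTG (1.97%) had no match in these windows on either strand. XBP1 and IRF4 had CpG-rich promoters, with 40 and 32 CpG dinucleotides against a median of 14, and PRDM1 had 14. Their GC contents were 68.7% for XBP1, 74.0% for IRF4 and 54.3% for PRDM1, against a median of 58.7%.

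The lists held 36096 and 41099 peaks in CREBBP-KO, 35054 and 35841 in EP300-KO and 46940 and 40658 in WT, and covered 26.1 to 35.1 Mb. Each list holds peaks called in 1 clone against its own input. The depth of each library is unknown, and a window with no listed peak has no measured level. An empty window therefore means only that the list, as analysed here, holds no peak in it. A peak was found in all 6 clones for 44.8% of the merged regions and in 1 clone for 22.7%. B-cell markers matched the label: MS4A1 and CD79A, B-cell surface genes, had a peak within 2 kb of the start site in all 6 clones, whereas CD3E and CD2 (T cells), CD14 (monocytes) and ALB (hepatocytes) had none in any clone (within 10 kb, 2 of these 4 had one in all 6 clones). Start sites on hg19 were placed from general knowledge and stand in none of the files used.

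The IRF4 window held no H3K27ac peak in any clone. Covered bases were 0 and 0 in CREBBP-KO, 0 and 0 in EP300-KO and 0 and 0 in WT, so no difference between genotypes could be measured. The nearest peaks to the left lay 78.0 to 78.3 kb from the IRF4 start site in all 6 clones. They were inside DUSP22, a phosphatase gene whose own start site had 1397 and 1440 covered bases within 2 kb in CREBBP-KO, 1619 and 1686 in EP300-KO, and 1775 and 1645 in WT.

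To the right of IRF4 the clones differed in 1 peak. The 4 knock-out clones and WT clone 1 had none before the start of EXOC2, an exocyst subunit gene 301 kb away, whereas WT clone 2 had a peak at chr6:490895-491135, 99.2 kb from the start site. The peak-free stretch around IRF4 was therefore 379 kb in the 4 knock-out clones and WT clone 1, and 177 kb in WT clone 2. Over the 6 lists together it was 177 kb, a length reached by 3197 of 48852 gaps between merged regions (6.54%). These long gaps hold 74.8% of all bases between regions, and 65.2% of 29543 windows of 100 kb had no peak in any list. An empty window of this width was thus the commoner state of the genome, over windows laid end to end without regard to genes. Windows that hold a gene were not counted apart.

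The PRDM1 window was likewise empty, with 0 and 0 covered bases in CREBBP-KO, 0 and 0 in EP300-KO and 0 and 0 in WT. Its surroundings were peak-free for longer than those of IRF4. The gap was 921 kb in both CREBBP-KO clones, 461 kb in both EP300-KO clones, 448 kb in WT clone 1 and 921 kb in WT clone 2. On the right it ended in every clone at the start of ATG5, an autophagy gene 238 kb away, with 881 and 1145 covered bases within 2 kb of that start site in CREBBP-KO, 1000 and 1295 in EP300-KO, and 1113 and 940 in WT. Over the 6 lists the gap was 448 kb, a length reached by 2.88% of gaps. Of 21100 windows of 140 kb, 59.0% had no peak in any list and 33.2% had one in every list.

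The clones differed to the left of PRDM1, outside its window. A merged region of 1263 bases at chr6:106310686-106311948, 168 kb from the window's edge, had 0 and 0 covered bases in CREBBP-KO, 930 and 1243 in EP300-KO, and 701 and 0 in WT. Both EP300-KO clones lay above both WT clones and both CREBBP-KO clones, and the CREBBP-KO and WT ranges overlapped. Of all merged regions, 2.79% likewise had a peak in both EP300-KO clones and in neither CREBBP-KO clone. In limma's fit over 19860 regions the log2 difference was 2.26 for EP300-KO minus WT (SE 0.96, adjusted p = 0.22), -1.46 for CREBBP-KO minus WT (SE 0.96, adjusted p = 0.73) and -3.72 for CREBBP-KO minus EP300-KO (SE 0.96, adjusted p = 0.076). None passed the threshold of 0.05. The region met the filter of 500 covered bases in 2 clones only with EP300-KO clones counted. It was also picked out by these same values, so the p-values for it add no support. The sizes depend on the pseudocount of 100 bases where a group has no covered bases. Exact two-sided permutation of 2 clones against 2 gave p = 0.33 for both comparisons without overlap, the smallest it can give. The authors' score of this peak was 38 and 49 in EP300-KO and 51 in WT clone 1. The next region to the right, a peak 210 kb left of the PRDM1 start site, was in WT clone 1 alone.

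**Figure D1:**
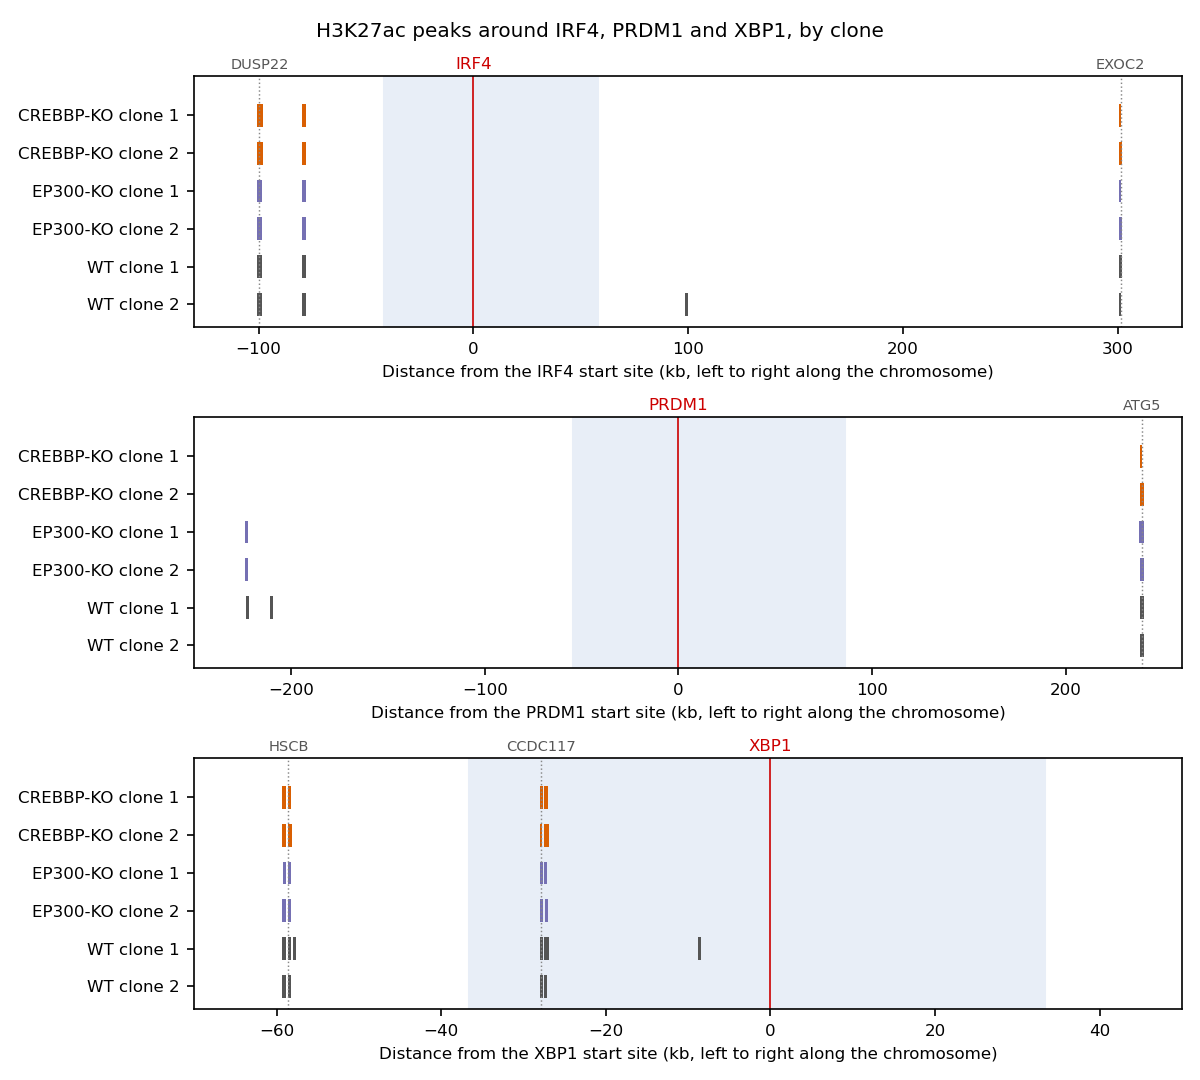
H3K27ac peaks of the 6 clones (rows, coloured by genotype) against distance in kb from the start sites of IRF4, PRDM1 and XBP1 (red lines); the shaded band is each gene's window, dotted lines are neighbouring start sites, and very narrow peaks are widened to stay visible. The IRF4 and PRDM1 bands are empty in all rows, and the XBP1 band holds peaks at the CCDC117 start in all rows and 1 further peak in WT clone 1.

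The XBP1 window held peaks in every clone, but at the start of the neighbouring gene CCDC117 and not at that of XBP1. Covered length was 712 and 765 bases in CREBBP-KO, 606 and 822 in EP300-KO, and 1285 and 517 in WT. WT clone 1 was the highest and WT clone 2 the lowest of the 6 clones, so both knock-outs lay within the WT range. The means were 738.5 ± 37.5 bases in CREBBP-KO, 714.0 ± 153 in EP300-KO and 901.0 ± 543 in WT (SD, n = 2 each). An exact two-sided permutation test gave p = 1.0 for CREBBP-KO against WT, for EP300-KO against WT and for CREBBP-KO against EP300-KO, where 2 clones against 2 cannot go below 0.33. On the centred log2 scale the differences were -0.04, 0.01 and -0.05 in the same order, against a pooled SD within genotypes of 0.46.

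Leaving out 1 WT clone decided the direction. Without WT clone 1 the log2 difference was 0.47 for CREBBP-KO minus WT and 0.52 for EP300-KO minus WT. Without WT clone 2 it was -0.56 and -0.50. The CREBBP-KO minus EP300-KO difference ranged from -0.26 to 0.15 over the clones left out.

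The first shared region of the window, chr22:29168583-29168984 (402 bases), had 337 and 274 covered bases in CREBBP-KO, 295 and 371 in EP300-KO, and 357 and 279 in WT. The ranges of the 3 genotypes overlapped. Its centre lay 27.8 kb left of the XBP1 start site, at the start of CCDC117, which precedes XBP1 among protein-coding genes in the RefSeq order. The authors' score of its peak was 69 and 72 in CREBBP-KO, 83 and 71 in EP300-KO, and 89 and 73 in WT. It scored above 65.3 to 77.0% of the peaks of its own list, so it stood in the upper part of each list.

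The second shared region, chr22:29169120-29169676 (557 bases), lay 135 bases beyond the end of the first and had the most covered bases of the 3 in the mean over clones, though not in WT clone 2. It had 375 and 491 covered bases in CREBBP-KO, 311 and 451 in EP300-KO, and 557 and 238 in WT. WT clone 1 was again the highest and WT clone 2 the lowest. Its peak scored 57 and 68 in CREBBP-KO, 58 and 56 in EP300-KO, and 83 and 63 in WT. Both shared regions were shorter than the median of 835.5 covered bases for the regions present in all 6 clones.

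The third region, chr22:29187807-29188177 (371 bases), was the peak nearest to XBP1, with its centre 8.59 kb from the start site. It had 0 and 0 covered bases in CREBBP-KO, 0 and 0 in EP300-KO, and 371 and 0 in WT, so it was called in WT clone 1 alone. Its score there was 41, above 39.2% of that clone's peaks. WT clone 1 had the longest of the 6 lists and held 5236 of the 48876 merged regions by itself. The part of list length in this peak was not tested.

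**Figure D2:**
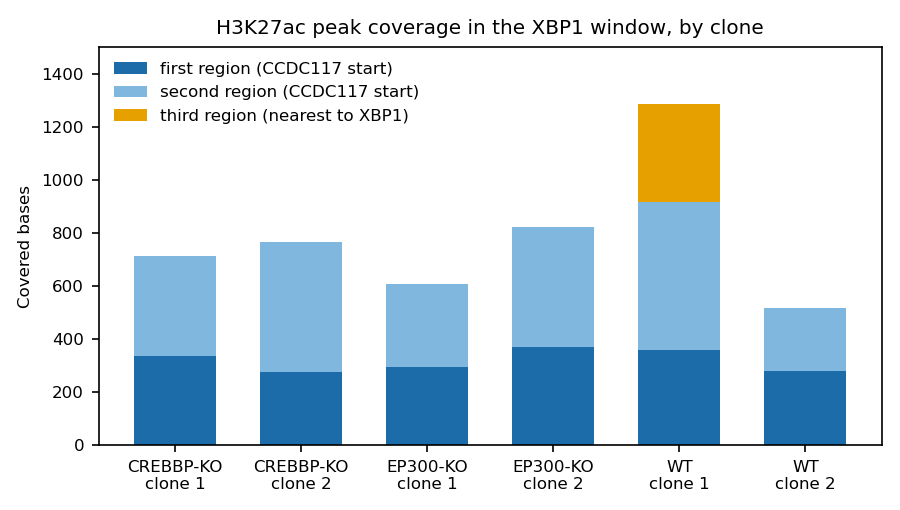
Covered bases in the XBP1 window (vertical axis) in each clone, stacked by merged region; each bar is 1 clone, so there are no error bars. The 4 knock-out clones, at 606 to 822 bases, lie between the WT clones, at 1285 and 517 bases, and the nearest region to XBP1 appears in WT clone 1 only.

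Right of XBP1 no list held a peak for 466 kb, and the gap over the 6 lists was 475 kb, a length reached by 2.70% of gaps. Of 42210 windows of 70 kb, 70.8% had no peak in any list and 22.4% had one in every list. Among those with a peak in every list the median was 1876.5 covered bases, and 17.1% had fewer bases than the XBP1 window. The window held 4.75 to 10.1% of the covered bases of its megabase (chromosome 22, 29 to 30 Mb), and the IRF4 and PRDM1 windows held 0.0% of theirs.

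No region of the 3 genes was lost or gained by presence. A region counted as lost if both clones of the second genotype and neither clone of the first had it, and as gained in the reverse case. The count was 0 of 3 in each direction for CREBBP-KO against WT, where 3.05% of all merged regions were lost and 1.25% gained. It was 0 of 3 for EP300-KO against WT, where 9.15% were lost and 1.74% gained, and 0 of 3 for CREBBP-KO against EP300-KO, where 2.79% were lost and 6.5% gained. With 3 regions these shares leave a count of 0 near the background. The third region met the rule for a loss in both knock-outs only when WT clone 2 was left out.

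None of the 3 gene windows and none of the 3 regions entered limma's planned fits, which asked for 1000 covered bases in 2 clones per window (6969 of 30540 windows) and 500 per region (19860 of 48876 regions). With any covered base in 2 clones as the filter, the XBP1 window and its 2 shared regions entered. The log2 difference of the window was -0.04 for CREBBP-KO minus WT (SE 0.37, limma's adjusted p = 0.97), 0.01 for EP300-KO minus WT (adjusted p = 0.99) and -0.05 for CREBBP-KO minus EP300-KO (adjusted p = 0.94). The first region differed by -0.26 to 0.25 (SE 0.25, lowest adjusted p = 0.57) and the second by -0.01 to 0.22 (SE 0.34, lowest adjusted p = 0.72). No difference at XBP1 passed the threshold. Among all regions in the planned fit, 0.0101% were lower and 0.0% higher in CREBBP-KO against WT, 6.13% lower and 1.21% higher in EP300-KO against WT, and 1.9% lower and 7.21% higher in CREBBP-KO against EP300-KO. Both knock-outs were compared with the same WT clones.

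The empty start sites of the 3 factors were set beside those of their neighbours and of listed genes of the same pathways. Within 2 kb of the start site, 0 of the 3 factors had a peak in any clone, and 6 of 7 neighbours (DUSP22, EXOC2, PREP, ATG5, CCDC117 and HSCB) had one in all 6 clones. The seventh, ZNRF3, which follows XBP1, had none in any clone. The neighbours were chosen after their values were seen, so this contrast is a description and no test. HSCB is not next to XBP1 in the RefSeq order, and the CCDC117 peaks are those of the shared regions in the XBP1 window. The share of all start sites in the genome that had a peak was not counted. Of 8 listed plasma cell genes, 6 had a peak in all 6 clones (CD38, TNFRSF17, JCHAIN, MZB1, POU2AF1 and CD27). The list is not particular to plasma cells, since CD38, for example, is also a gene of germinal-centre B cells. The count is therefore no measure of the plasma cell programme. SDC1, the plasma cell surface marker syndecan-1, had none. ELL2, an elongation factor used in antibody mRNA processing, had 0 and 0 covered bases in CREBBP-KO, 296 and 166 in EP300-KO, and 0 and 0 in WT. By presence alone, ELL2 was the only listed plasma cell gene with a start-site peak in some clones and none in others. Covered length at the start sites with a peak in all 6 clones was not compared here. The ELL2 peak was a gain of the kind that 1.74% of all merged regions showed in EP300-KO against WT. Its window was too short in covered bases for limma's fit.

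Around XBP1, 5 of 6 unfolded protein response genes had a start-site peak in all 6 clones, among them HSPA5, the chaperone BiP, and DNAJB9, its co-chaperone. ERN1, the enzyme that splices XBP1 mRNA, had none within 2 kb, though its wider window was covered in all clones. Of the 7 B-cell factors that oppose or precede the plasma cell programme (BCL6, PAX5, BACH2, CIITA, SPIB, EBF1 and ID3), 7 had a start-site peak in all 6 clones. In all, 21 of the 28 listed genes had one in every clone. Within 1 kb the count was 21 of 28 and within 10 kb 23 of 28. At 10 kb XBP1 was reached by its WT clone 1 peak, while IRF4 and PRDM1 still had none.

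No listed window differed between CREBBP-KO and WT in limma's fit over 6969 windows of the genome. Of the 28 listed windows 23 entered, 0 passed in either direction, and the background was 0.0% lower and 0.0% higher, with 974 windows of the genome at an unadjusted p under 0.05. The median log2 difference of the listed windows was 0.08, against 0.04 over all windows tested. The medians were 0.10 for the plasma cell genes, of which 6 of 8 entered, -0.04 for the unfolded protein response genes (5 of 6) and 0.10 for the opposing B-cell factors (7 of 7).

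In EP300-KO against WT, 2 of the 23 listed windows that entered the fit were lower and 0 higher. Both were B-cell factors, 2 of the 7 on that list. Of all windows tested 7.03% were lower and 1.78% higher, so 2 of 23 lies near the background. Most windows tested were tiles of 100 kb, and the windows of the 2 genes called were wider, so these shares are not like for like. BACH2, a repressor of PRDM1, had 17.4 ± 4.19 kb covered in EP300-KO and 36.4 ± 8.14 kb in WT (SD, n = 2 each; log2 difference -0.86, SE 0.19, limma's adjusted p = 0.0496). EBF1, an early B-cell factor, had 50.9 ± 2.84 kb in EP300-KO and 76.8 ± 1.75 kb in WT (log2 difference -0.38, SE 0.09, adjusted p = 0.048). The medians were -0.17 for the opposing B-cell factors, 0.04 for the plasma cell genes, 0.05 for the unfolded protein response genes, 0.02 for all listed windows and 0.02 for all windows tested. None of the plasma cell or unfolded protein response windows passed.

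Both calls were near the threshold. BACH2 lost its call without any 1 clone but EP300-KO clone 2 (adjusted p 0.0537 to 0.152) and EBF1 without any 1 clone but WT clone 1 (0.0571 to 0.195), and the direction stayed lower in EP300-KO each time. Under quantile normalization BACH2 (log2 difference -0.71, adjusted p = 0.076) and EBF1 (log2 difference -0.14, adjusted p = 0.125) did not pass.

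Between the knock-outs, CREBBP-KO exceeded EP300-KO in 4 of the 23 listed windows that entered the fit and was lower in 0. Among all windows tested 10.7% were higher and 3.24% lower. Of the listed windows tested, they were 2 of 7 opposing B-cell factors, 1 of 6 plasma cell genes and 1 of 5 unfolded protein response genes. CD38, an ectoenzyme of plasma cells and germinal-centre B cells, was covered over 18.6 ± 2.29 kb in CREBBP-KO, against 10.7 ± 0.575 kb in EP300-KO (SD, n = 2 each; log2 difference 0.69, SE 0.08, limma's adjusted p = 0.0091). EDEM1, which sends misfolded glycoproteins to degradation and is an XBP1 target, was covered over 12.4 ± 2.02 kb in CREBBP-KO, against 8.06 ± 0.929 kb in EP300-KO (a log2 difference of 0.51 with SE 0.10, adjusted p = 0.031). The log2 differences between the knock-outs were 1.07 for BACH2 (SE 0.19, adjusted p = 0.023) and 0.56 for EBF1 (SE 0.09, adjusted p = 0.016). The medians were 0.27 for the opposing B-cell factors, 0.13 for the plasma cell genes, -0.09 for the unfolded protein response genes and 0.01 for all windows tested. The EP300-KO clones enter this and the previous comparison, so the 2 are not independent. Each of the 4 calls ended without either CREBBP-KO clone or without EP300-KO clone 1 (adjusted p from 0.053 to 0.166). Quantile normalization ended EBF1 (log2 difference 0.07), EDEM1 (0.24) and BACH2 (0.69).

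**Figure D3:**
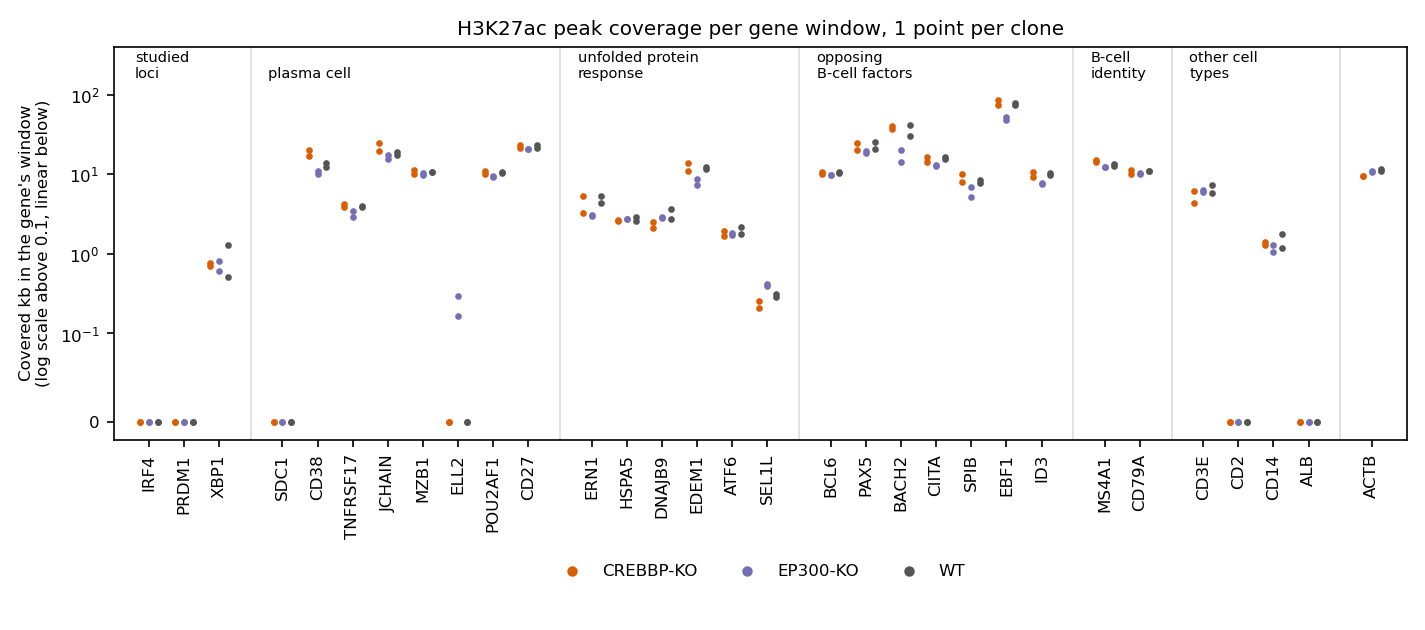
Covered kb (log scale above 0.1 kb, linear below) in the windows of IRF4, PRDM1, XBP1 and the 28 listed genes, 1 point per clone, coloured by genotype. IRF4 and PRDM1 sit at 0 in all 6 clones, and XBP1 between 517 and 1285 bases. The EP300-KO points of BACH2 and EBF1 lie below those of CREBBP-KO and WT. So do those of other windows, such as BCL6, PAX5, CIITA and CD38, though not of every window. The lengths drawn are not centred.

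Over the 6 clones the covered length of the XBP1 window was most like that of the windows of ATF6, a sensor of the unfolded protein response (Pearson r = 0.64), and PAX5 (r = 0.59), out of 25 listed windows with peaks. The covered bases of the XBP1 window lay at the start of CCDC117, apart from the third region in WT clone 1. CD14, a monocyte gene, followed closely (r = 0.57), and ERN1, which splices XBP1 mRNA, was the least like it (r = -0.54). These are descriptions over 6 clones that share their lists' lengths. The IRF4 and PRDM1 windows have no variation to compare.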

How the data were processed

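Per the labels' protocols, H3K27ac ChIP-seq was done on single SUDHL4 clones, 2 for each of 3 genotypes. Per the submitters' processing notes the authors used CASAVA 1.8, Bowtie2 2.1.0 and SAMtools 0.1.19 with hg19. As for the peak caller, it was not given in the sources used here. Per the file headers, each deposited list was called for 1 library with that clone's input as control. The deposited start and end are positions, taken here to count from 0, an assumption that could put a printed start off by 1 base. The deposited score of a peak (14 or 15 to 170) has no stated meaning, and was used to describe peaks and to rank them within a list. Depth per library is unknown.

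Peaks sharing a base were joined into merged regions. Covered bases per window or region entered limma 3.58.1 (R 4.3.3) as log2(covered bases + 100) after subtracting each clone's median across features that every clone covers, with the spread following the mean, 1 fit for all 6 clones and Benjamini-Hochberg adjustment over all features past the filter at 0.05. The pseudocount shrinks the log2 differences of short regions. Windows were tiles of 100 kb, with the 3 gene windows and the windows of the listed genes (gene with 20 kb on each side, rounded out to 10 kb) in place of the tiles they overlap. Before centring, the median window differed by -0.10 (CREBBP-KO minus WT), -0.21 (EP300-KO minus WT) and 0.11 (CREBBP-KO minus EP300-KO), so differences are relative to that shift. The scripts were tested on simulated data. Python 3.11.15, pandas 2.3.3, numpy 2.4.6, scipy 1.17.1 and matplotlib 3.10.9 did the rest.

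The members and gene lists were chosen with earlier results of these data known. The 3 factors were always named. Listed genes are given as counts, with values for windows past the threshold. Genes named for an empty start site or as neighbours were chosen after their values were seen. Positions of genes on hg19 are general knowledge; the chromosome of 38 of 38 genes matched the RefSeq gene table (GRCh38.p14), used otherwise for names and gene order. The RefSeq promoter table of the same build gave the promoter sequences, their positions and the promoter backgrounds. Some listed genes entered the fit and are not reported here. Replicate numbers name clones and pair nothing.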

Additional observations from a re-analysis of the deposited data

Results flagged for a closer look

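The region left of the PRDM1 window, chr6:106310686-106311948, had a mean of 1086.5 covered bases in EP300-KO, 0.0 in CREBBP-KO and 350.5 in WT. It was picked out because both EP300-KO clones lay above the WT mean and both CREBBP-KO clones below it. The difference between the knock-outs had an adjusted p of 0.076 in limma's fit, which rests on the values the region was picked by and adds no support.

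For 4 listed windows the log2 difference between CREBBP-KO and EP300-KO, which is the difference between their changes from WT, passed the threshold in limma's fit. It was 0.69 for CD38, 0.51 for EDEM1, 1.07 for BACH2 and 0.56 for EBF1. CD38 was higher in both CREBBP-KO clones than in both WT clones without passing against WT (log2 difference 0.59, SE 0.08, adjusted p = 0.11).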

How the results depend on the processing

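No paired analysis was possible because the replicate numbers only name clones in accession order. At the 3 genes, 36 of 42 values of covered length and 40 of 42 counts of regions lost or gained held over the alternatives run. That is, they moved by less than the spread between clones, or stayed the same. Some could not move. Another filter, or a spread that does not follow the mean, leaves a log2 difference as it is, and shorter lists cannot fill an empty window. A change of sign within that spread also counted as held. Without CREBBP-KO clone 2 the XBP1 difference of CREBBP-KO minus WT went from -0.04 to 0.06. These counts are therefore no full measure of stability. The count of regions called was 0 in 39 of 39 alternatives, which is no measure of stability. None of the 3 regions passed the planned filter, so under that filter the count could only be 0. With any covered base in 2 clones as the filter, the 2 shared XBP1 regions entered and 0 were called. Windows widened by 50 kb on each side held 12 peaks at IRF4, 0 at PRDM1 and 26 at XBP1, since they then take in the neighbouring peaks. The log2 difference of the XBP1 window ranged over the clones left out from -0.56 to 0.47 for CREBBP-KO minus WT, from -0.50 to 0.52 for EP300-KO minus WT and from -0.26 to 0.15 for CREBBP-KO minus EP300-KO. The count of regions lost was 0 to 1 in each knock-out against WT over the clones left out, with 1 only without WT clone 2. Quantile normalization was not run for the XBP1 window, which did not pass the filter. Over 15 alternatives, the calls in EP300-KO against WT ended in 11 for BACH2 and 11 for EBF1, and those between the knock-outs in 3 for CD38, 7 for EDEM1 and 4 each for BACH2 and EBF1, with no change of direction. Scaling shifted the balance of calls over all windows: EP300-KO against WT had 490 lower and 124 higher, with quantile normalization 408 and 240 and with no centring 403 and 46, and CREBBP-KO against EP300-KO had 226 lower and 746 higher, with quantile normalization 362 and 447 and with no centring 66 and 479. Depth is unknown, so what a deeper library would have called in the empty windows cannot be said.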
